A study of Mus musculus with 2 samples.

Results

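The genes of the interleukin 1 (IL-1) family followed here were the ligands Il1a, Il1b, Il18 and Il33, the receptor antagonist Il1rn, the receptors Il1r1, Il1r2 and Il1rl1, and the inflammasome sensor Nlrp3. They were taken by symbol from the gene lists of both count matrices, which held all 9 of them among 27998 genes. Cells came from the centre of full-thickness dorsal skin wounds, 1.8 cm across, in male wild type C57BL/6J mice aged 6 to 8 weeks. On days 0, 3 and 6 the wounds of TLR9agonist_LW received ODN2395, a CpG oligonucleotide that activates Toll-like receptor 9. Those of WT_LW received phosphate-buffered saline by the study's methods, although the study elsewhere names a control oligonucleotide for this group. Tissue was taken 2 days after the scab had detached, the cells of several mice were pooled, and each group gave 1 library. No test between the groups was therefore possible, pooled mice and preparation cannot be told apart from the treatment, and the 95% intervals given below cover counting error only.

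IL-1α and IL-1β signal through the receptor encoded by Il1r1 together with the accessory chain Il1rap, and drive transcription through the adaptor Myd88 and NF-κB. The antagonist encoded by Il1rn occupies the same receptor without signalling, whereas the decoy receptor encoded by Il1r2 binds IL-1 and lacks the signalling domain. IL-33 is an alarmin stored in the nucleus of epithelial and stromal cells and acts on ST2, the product of Il1rl1. IL-1β and IL-18 are made as precursors that caspase-1 cuts after sensors such as NLRP3 have assembled an inflammasome, so a transcript level says nothing of how much active cytokine was released.

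After the filters, 10395 cells of WT_LW with 85681280 unique molecular identifiers (UMIs) and 11811 cells of TLR9agonist_LW with 111120573 UMIs were used, and 47 cell barcodes occurred in both libraries. Cells were gated by marker genes that include none of the 9 members, and the UMIs of a gene were summed over the cells of a gate and given as UMIs per 1000000 UMIs of that gate (CPM). The gates held 1734 and 1239 mononuclear phagocytes, 2478 and 2334 T cells, 618 and 1336 keratinocytes, 951 and 2376 fibroblasts, 391 and 357 pericytes and smooth muscle cells, and 169 and 426 mast cells, in the order WT_LW and TLR9agonist_LW. The neutrophil gate held only 42 cells in WT_LW against 189, Ly6g was at 0 in those 42 cells, and its values are given as levels without a ratio. Gates that should lack a gene still held some of its UMIs from free RNA, and this background was read in Schwann cells, of which there were 623 and 405. It was not the same in both libraries: the summed level of the 10 keratinocyte markers in Schwann cells was 414 CPM in WT_LW and 1893 CPM in TLR9agonist_LW. In each gate the median gene also lay off 0, at a log2 ratio of TLR9agonist_LW over WT_LW of -0.39 over all cells, -0.26 in phagocytes, -0.23 in T cells, -0.45 in keratinocytes and 0.18 in mast cells, and ratios near these values do not stand apart from the bulk of genes.

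The members divided the wound between them. Among the main gates, Il1b, Il1rn, Il1r2 and Nlrp3 were highest in phagocytes and neutrophils, Il33 and Il18 in keratinocytes, Il1r1 in pericytes and smooth muscle cells, and Il1rl1 in mast cells and fibroblasts. Il1a was highest in phagocytes among the larger gates of WT_LW and in mast cells in TLR9agonist_LW.

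**Figure D1:**
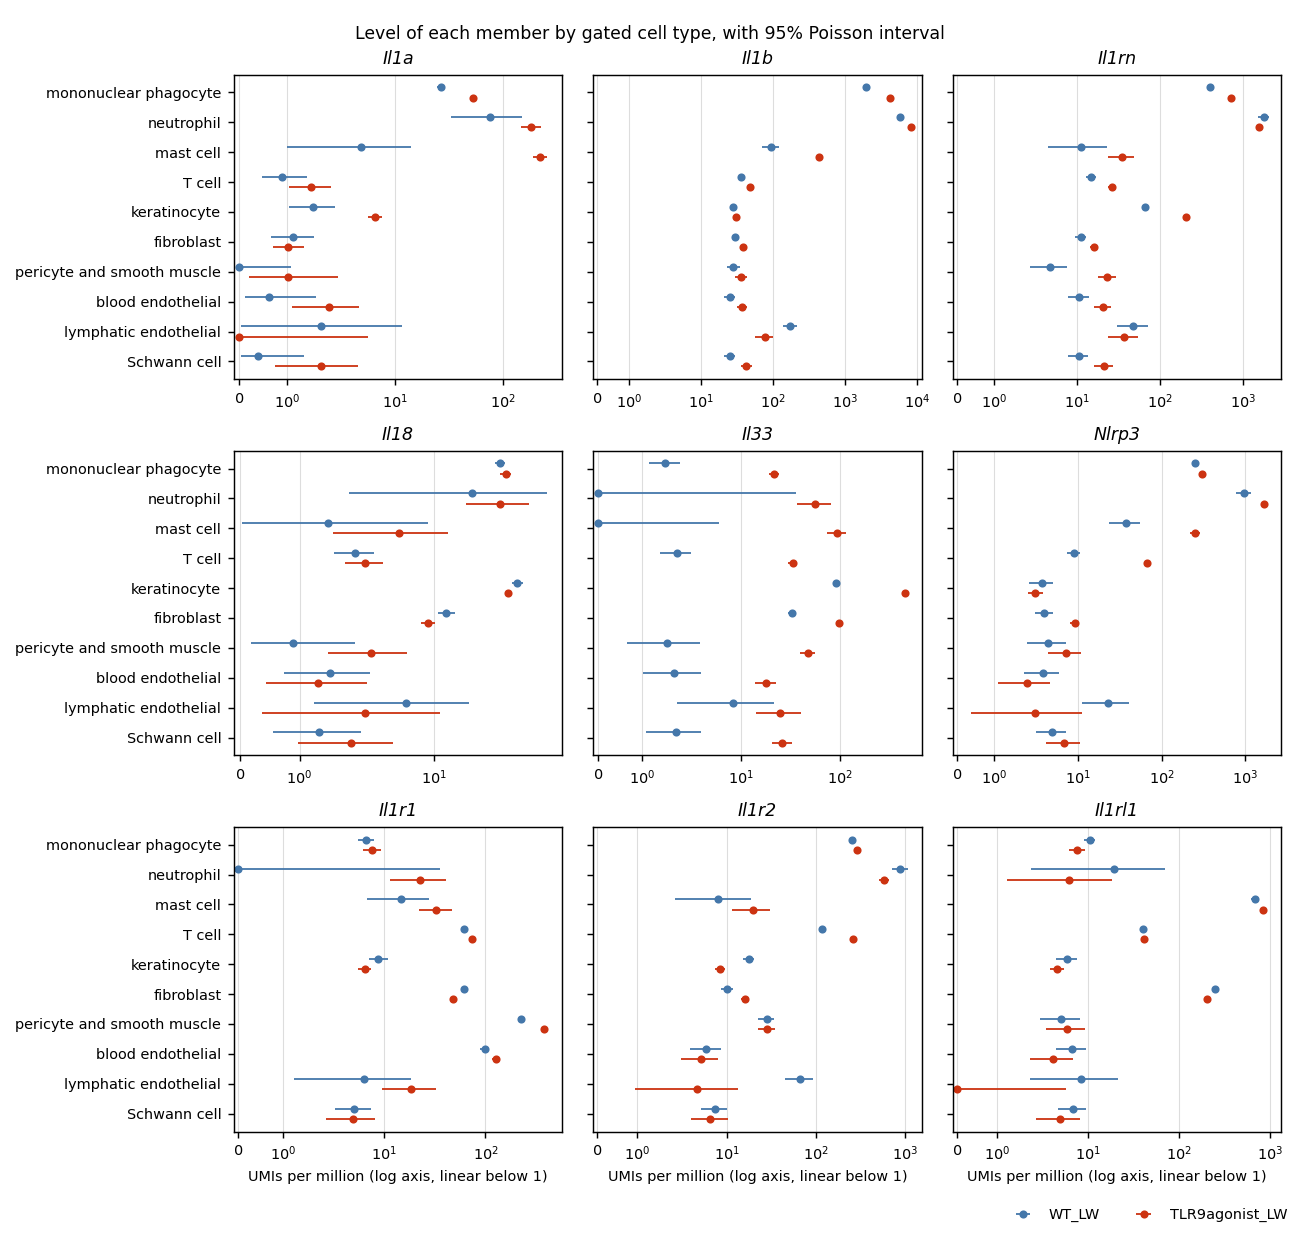
Level of each member in 10 gates, in CPM on a log axis that is linear below 1, for WT_LW (blue) and TLR9agonist_LW (red), with points for the library and bars for its exact 95% Poisson interval. Il1b stands at 1955 and 4247 CPM in phagocytes against 25.4 and 42.9 CPM in Schwann cells, and Il33 is higher in TLR9agonist_LW in every gate drawn.

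Only genes with at least 50 UMIs summed over both libraries were used for counts. The members at least 2-fold higher in TLR9agonist_LW were counted in each gate, beside the share of all such genes. In keratinocytes this held for 3 of 9 members (Il1a, Il1rn and Il33), against 2.55% of all genes counted. In T cells it held for 3 of 8 (Il1r2, Il33 and Nlrp3), against 4.36%, although Il1r2 fell to a log2 ratio of 0.99 with a stricter gate. In phagocytes it held for 2 of 9 (Il1b and Il33), against 3.52%, and Il1a lay just under the line. Il1b fell under it with a stricter gate (log2 ratio 0.89), equal weight per cell (0.93) or cells thinned to 1500 UMIs (0.94). In mast cells 4 of 5 were at least 2-fold higher (Il1a, Il1b, Il33 and Nlrp3), against 12.6%. Of these, Il1a (3 and 203 UMIs), Il33 (0 and 84) and Nlrp3 (23 and 230) reached 50 UMIs only through TLR9agonist_LW. In fibroblasts a level at least 2-fold higher held for 2 of 9 (Il33 and Nlrp3), against 4%. In pericytes and smooth muscle cells it held for 2 of 5 (Il1rn and Il33), against 3.25%, and in blood endothelial cells for 1 of 4 (Il33), against 3.35%. In Schwann cells, read here as background, it held for 2 of 4 (Il1rn and Il33), against 2.47%, so counts of this size were also found where the members lay at background. Il1r2 in keratinocytes was the one member at least 2-fold lower in these gates, where 20.2% of genes were. It fell short of 2-fold with doublets kept (log2 ratio -0.65), with equal weight per cell (-0.54) and relative to the median gene (-0.61). Over all cells together only Il33 passed, against 3.8% of genes. Outside mast cells, Il33 in T cells, phagocytes, pericytes, blood endothelial cells and Schwann cells also reached 50 UMIs only through TLR9agonist_LW. So did Il1a in keratinocytes and Il1rn in pericytes. Such a filter favours the call of higher, so no conclusion is drawn from these counts. Some of these entries, Il33 in T cells, phagocytes and blood endothelial cells and Il1rn in pericytes among them, lay near the level of free RNA and are read with it below.

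**Figure D2:**
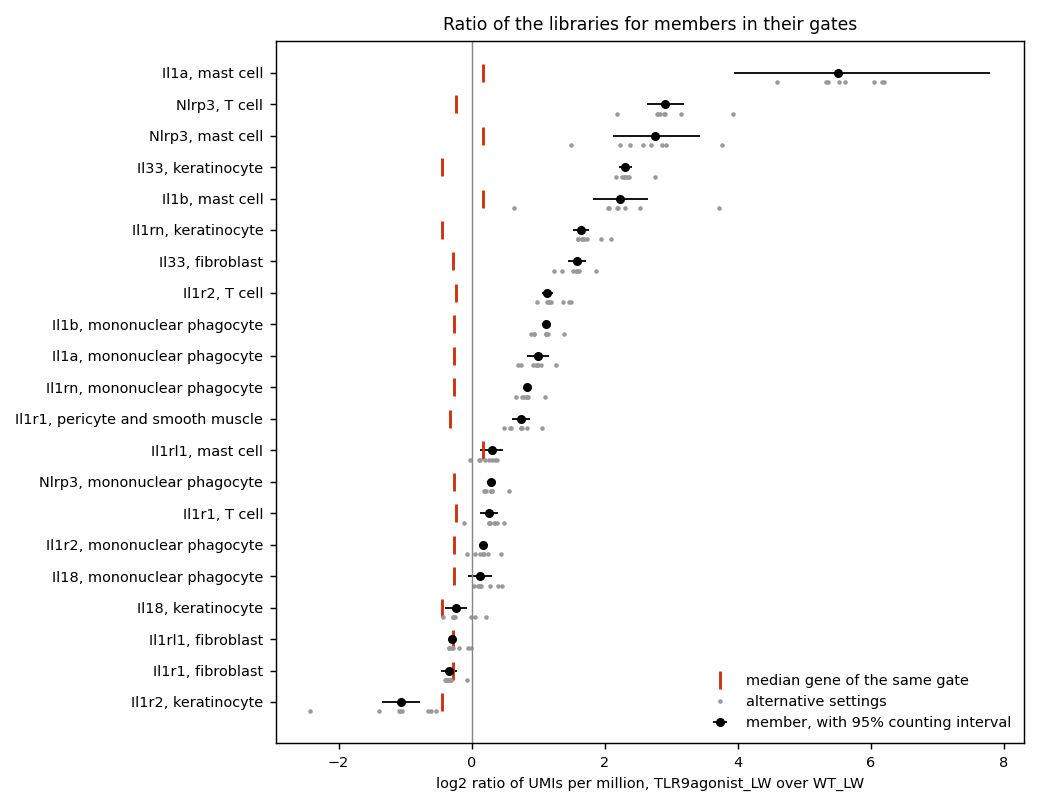
Log2 ratio of CPM, TLR9agonist_LW over WT_LW, for 21 pairs of member and gate, with the exact 95% counting interval (black), the median gene of the same gate (red tick) and the values under the 8 alternative settings (grey). Il1a in mast cells is at 5.51, Il1r2 in keratinocytes is at -1.06, and the receptors Il1r1 and Il1rl1 in fibroblasts lie at the median gene.

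Il1b, on chromosome 2 (chr2:129364570-129371139, minus strand, GRCm38), encodes IL-1β. The phagocyte gate held 36717 Il1b UMIs in WT_LW and 51830 in TLR9agonist_LW, which were 84.3% and 74.5% of all Il1b UMIs. The level there was 1955 CPM (95% interval 1935 to 1975) and 4247 CPM (4210 to 4284), a log2 ratio of 1.12 (1.10 to 1.14). Neutrophils held 5724 CPM and 8244 CPM. Fibroblasts, keratinocytes, pericytes and endothelial cells of blood vessels, at 25.2 to 29.6 CPM in WT_LW and 31.0 to 38.4 CPM in TLR9agonist_LW, lay around the Schwann cell level of 25.4 and 42.9 CPM and are read as background.

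The difference in Il1b between the libraries was uneven within the phagocytes. In macrophages the level was 1589 CPM in 920 cells of WT_LW and 1899 CPM in 662 cells of TLR9agonist_LW, a log2 ratio of 0.26 (0.22 to 0.29). In type 1 dendritic cells it was 1830 and 1533 CPM, so that the library with the agonist was the lower. In monocytes it was 2394 and 8179 CPM, a log2 ratio of 1.77 (1.70 to 1.84). Monocytes thus stood above macrophages in both libraries, and by more in TLR9agonist_LW. The monocyte gate itself also differed, since its 10 phagocyte markers summed to 18333 CPM in WT_LW against 8256 CPM in TLR9agonist_LW (18955 and 15126 CPM in macrophages) and its 10 neutrophil markers to 930 and 1436 CPM (597 and 516 CPM in macrophages), and the part of these in the Il1b values was not tested. Type 2 or monocyte-derived dendritic cells held 3025 and 7710 CPM, and Langerhans cells, the dendritic cells of the epidermis, held 889 and 4972 CPM, a log2 ratio of 2.48 (2.39 to 2.58). Migratory dendritic cells, with only 13 and 20 cells, held 3812 and 7611 CPM. These gates were small in TLR9agonist_LW, with 81 monocytes, 99 type 2 or monocyte-derived dendritic cells and 35 Langerhans cells. The phagocytes in none of the finer gates, 328 and 306 cells, held 2522.5 and 6474 CPM, a log2 ratio of 1.36 (1.32 to 1.40). With 7347 and 19868 Il1b UMIs they carried more of the gene in TLR9agonist_LW than the macrophages, with 15279 and 11165. Most phagocytes held the transcript in either library: thinned to 1500 UMIs each, 63.5% of WT_LW phagocytes and 67.8% of those in TLR9agonist_LW held an Il1b UMI (83.0% and 84.9% unthinned), while Schwann cells gave 4.08% and 3.70% (18.0% and 20.5% unthinned). Cells with at least 1 UMI held 25.5 and 49.3 Il1b UMIs on average, at median depths of 9858.5 and 8881 UMIs for the gate.

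**Figure D3:**
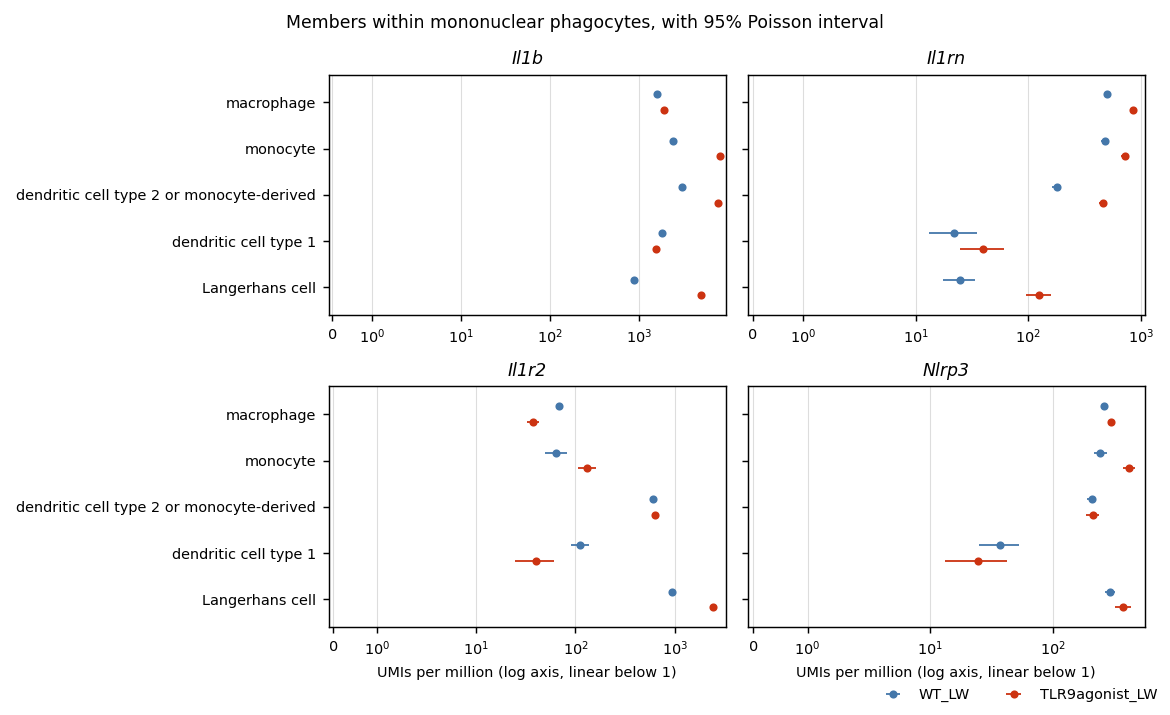
Il1b, Il1rn, Il1r2 and Nlrp3 within the mononuclear phagocyte gate, in CPM on a log axis that is linear below 1, for WT_LW (blue) and TLR9agonist_LW (red), with exact 95% Poisson intervals. Langerhans cells show the widest gap for Il1b (889 and 4972 CPM) and the highest Il1r2 of both libraries (939 and 2442 CPM).

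Il1a (chr2:129299610-129309972, minus strand) encodes IL-1α, which is active without cutting by caspase-1. Neutrophils held 76.7 CPM (8 UMIs) in WT_LW and 184 CPM (89 UMIs, 148 to 226) in TLR9agonist_LW. In phagocytes its level was 26.7 CPM in WT_LW and 53.4 CPM in TLR9agonist_LW, with a log2 ratio of 1.0 (0.83 to 1.17). The wider gap was in mast cells, where WT_LW held 3 Il1a UMIs in 2 of 169 cells (4.85 CPM, 1.0 to 14.2) and TLR9agonist_LW held 203 in 57 of 426 cells (221 CPM, 192 to 254). The log2 ratio was 5.51 (3.94 to 7.80), and the 10% of mast cells with the most Il1a carried 93.1% of it in TLR9agonist_LW. Schwann cells held 0.397 and 2.08 CPM. The summed level of the 10 phagocyte markers in the mast cell gate was 349.5 CPM in WT_LW against 295 CPM in TLR9agonist_LW, and that of the 10 neutrophil markers was 183 and 266 CPM. Il1a in keratinocytes was 1.77 CPM (18 UMIs) and 6.55 CPM (193 UMIs), low in both libraries.

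Mast cells also held more Il1b and Nlrp3 in TLR9agonist_LW. Il1b was 93.8 CPM (58 UMIs) and 439 CPM (403 UMIs), a log2 ratio of 2.23 (1.83 to 2.65), and Nlrp3 was 37.2 CPM (23 UMIs) and 251 CPM (230 UMIs), a log2 ratio of 2.75 (2.13 to 3.44). The size of both depended on which cells were called mast cells: a stricter gate gave 3.71 and 3.77, and clusters in place of gates gave 0.64 and 1.49. In TLR9agonist_LW, 49.1% of the mast cells with an Il1a UMI also had one of Nlrp3, against 23.8% of the others, at median depths of 2836 and 1583 UMIs. The gate itself was deeper in WT_LW (2541 UMIs per cell) than in TLR9agonist_LW (1704).

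Il33 (chr19:29925114-29960718, plus strand) was the member with the largest difference over all cells, 19.5 CPM in WT_LW and 166 CPM in TLR9agonist_LW. Keratinocytes made up 5.95% and 11.3% of the cells, and the values over all cells also carry this difference. Keratinocytes held most of the Il33, 55.7% and 72.0% of its UMIs, at 91.2 CPM (85.4 to 97.3) and 452 CPM (444 to 460), a log2 ratio of 2.31 (2.21 to 2.41). Among them, suprabasal keratinocytes held 110.5 and 540.3 CPM and basal keratinocytes held 73.4 and 195 CPM. The suprabasal level was thus above the basal level in both libraries, and by more in TLR9agonist_LW. Fibroblasts held 32.3 and 96.9 CPM, a log2 ratio of 1.59 (1.45 to 1.72), and 1.24 once the Schwann cell level had been subtracted. In cells thinned to 1500 UMIs an Il33 UMI was found in 9.59% and 36.1% of keratinocytes (28.0% and 67.7% unthinned), in 5.23% and 10.1% of fibroblasts (16.5% and 39.6%) and in 0.326% and 4.20% of Schwann cells (1.77% and 15.1%). Schwann cells themselves held 2.18 and 25.9 CPM, and T cells (2.23 and 33.0 CPM), phagocytes (1.70 and 21.5 CPM) and blood endothelial cells (2.12 and 17.7 CPM) lay around that level, so these are read as background and not as expression. Pericytes and smooth muscle cells, with 1.78 and 47.2 CPM, and mast cells, at 91.6 CPM (84 UMIs), stood above it in TLR9agonist_LW, while the WT_LW mast cells held 0 UMIs, for which 3 UMIs would be 4.85 CPM and the exact Poisson interval reaches 5.97 CPM. The keratinocyte markers in those gates also differed, at 396 and 1685 CPM in pericytes and 608 and 2864 CPM in mast cells, and their part in the Il33 values was not tested.

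Il18 (chr9:50554827-50581840, plus strand), whose product induces interferon gamma in T and NK cells, was held by keratinocytes and phagocytes. Keratinocytes held 41.9 CPM (38.0 to 46.0) in WT_LW and 35.7 CPM (33.6 to 37.9) in TLR9agonist_LW, with a log2 ratio of -0.23 (-0.39 to -0.06), which became 0.22 relative to the median gene. Basal keratinocytes held 43.2 and 26.2 CPM, a wider gap, with a log2 ratio of -0.72 (-1.09 to -0.34), and suprabasal keratinocytes 47.6 and 39.5 CPM. Phagocytes held 31.2 and 34.2 CPM, with a log2 ratio of 0.13 whose interval included 0 (-0.05 to 0.31), and fibroblasts held 12.4 and 9.08 CPM. Schwann cells held 1.39 and 2.42 CPM. Of the main gates, keratinocytes thus came first and phagocytes next in both libraries, and in TLR9agonist_LW their intervals overlapped. Within phagocytes, monocytes (56.6 and 45.6 CPM) and type 1 dendritic cells (44.0 and 58.5 CPM) stood above the whole keratinocyte gate, each on 31 to 60 Il18 UMIs. Their intervals overlapped that of the keratinocytes, except for type 1 dendritic cells of TLR9agonist_LW (39.8 to 83.1). Macrophages held 31.6 and 40.1 CPM.

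Il1rn (chr2:24336853-24351494, plus strand) was held by both myeloid and epithelial cells. The gene has an upstream start, known for the intracellular antagonist of epithelial cells, and a downstream start, known for the secreted antagonist. The windows at these starts are shown because the same gene was counted in keratinocytes and in phagocytes, and UMI counts per gene do not say which start was used. Each window runs from 250 bases before to 50 after a RefSeq start on GRCm38.p6, on the plus strand, at chr2:24336610-24336909 and chr2:24345041-24345340. Capitals mark the AP-1 motif TGANTCA in the upstream window and the κB motif, GGG and TTTCC with any 2 bases between them, in the downstream window, searched on both strands.
Il1rn upstream start: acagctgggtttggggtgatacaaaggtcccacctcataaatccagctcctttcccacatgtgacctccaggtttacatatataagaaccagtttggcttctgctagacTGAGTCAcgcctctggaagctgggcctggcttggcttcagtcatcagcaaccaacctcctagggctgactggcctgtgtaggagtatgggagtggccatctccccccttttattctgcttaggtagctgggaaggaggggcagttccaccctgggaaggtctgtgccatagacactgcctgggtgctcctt
Il1rn downstream start: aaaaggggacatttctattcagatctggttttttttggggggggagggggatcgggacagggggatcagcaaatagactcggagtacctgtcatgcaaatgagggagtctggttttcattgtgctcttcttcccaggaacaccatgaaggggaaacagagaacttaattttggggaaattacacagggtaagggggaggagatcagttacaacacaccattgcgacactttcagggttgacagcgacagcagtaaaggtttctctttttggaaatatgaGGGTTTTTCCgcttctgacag
Among 32851 promoter windows of this length, 7.81% held the AP-1 motif and 1.63% the κB motif. The match is a description of these letters only. A further RefSeq start lay shortly after the downstream one, and its window, which overlaps the one shown, also held a κB match.

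In phagocytes Il1rn was 400.4 CPM (391 to 410) in WT_LW and 714 CPM (699 to 729) in TLR9agonist_LW, with a log2 ratio of 0.84 (0.79 to 0.88). In keratinocytes it was 65.4 CPM (60.5 to 70.6) and 205 CPM (199 to 210), a log2 ratio of 1.65 (1.53 to 1.76). The share of all Il1rn UMIs that lay in keratinocytes was 6.80% in WT_LW and 33.0% in TLR9agonist_LW, where keratinocytes also made up a larger part of the cells (5.95% and 11.3%). Suprabasal keratinocytes held 75.1 and 232 CPM and basal keratinocytes held 56.1 and 123 CPM. Within phagocytes, macrophages held 497 and 846 CPM, monocytes held 477 and 719 CPM, type 2 or monocyte-derived dendritic cells held 179 and 457 CPM, and Langerhans cells held 24.6 and 124 CPM. The few migratory dendritic cells went the other way, with 781 CPM in WT_LW and 590.5 CPM in TLR9agonist_LW (log2 ratio -0.40, -0.76 to -0.04). Macrophages, with the small difference in Il1b, held 1.7 times as much Il1rn in TLR9agonist_LW as in WT_LW. Neutrophils were high in both libraries, at 1774 and 1562 CPM, and their intervals overlapped. Schwann cells held 10.5 and 21.1 CPM, and the pericyte values of 4.74 and 23.2 CPM lay under it in WT_LW and close to it in TLR9agonist_LW.

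Il1r1 (chr1:40225080-40317257, plus strand), the signalling receptor of IL-1α and IL-1β, was highest in pericytes and smooth muscle cells. Their level was 227 CPM (211 to 243) in WT_LW and 379 CPM (357 to 402) in TLR9agonist_LW, with a log2 ratio of 0.74 (0.61 to 0.88), and 74.7% and 77.3% of the cells held a UMI (29.7% and 39.9% when thinned, against 0.816% and 0.247% of Schwann cells). Among the main gates, blood endothelial cells came next with 97.9 and 127 CPM. Fibroblasts and T cells were level in WT_LW, both at 60.7 CPM, and parted in TLR9agonist_LW, at 47.8 and 72.8 CPM. In fibroblasts the log2 ratio was -0.34, close to the -0.28 of their median gene. Phagocytes, at 6.55 and 7.54 CPM, lay close to the 4.96 and 4.84 CPM of Schwann cells.

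Among T cells Il1r1 was highest in the γδT17 gate, the cells with markers of IL-17-producing γδ T cells, at 178 CPM (159 to 200) in 342 cells of WT_LW and 128 CPM (116 to 140) in 678 cells of TLR9agonist_LW. The log2 ratio was -0.48 (-0.70 to -0.26), whereas the T cell gate as a whole gave 0.26 (0.13 to 0.40), which turned to -0.11 with a stricter gate. Regulatory T cells held 42.3 and 43.0 CPM and CD8 T cells 8.24 and 2.56 CPM. The γδT17 gate made up a larger part of the T cells in TLR9agonist_LW, and the whole gate and this part of it differed in direction.

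Il1r2 (chr1:40074079-40125231, plus strand), the decoy receptor, was held by phagocytes, neutrophils and T cells. In phagocytes as a whole it was 252 and 285 CPM, a log2 ratio of 0.18 (0.11 to 0.24) that became -0.07 with a stricter gate. This small value covered parts that went opposite ways. Langerhans cells held 939 CPM (891 to 988) and 2442 CPM (2306 to 2584), and all 35 of them had an Il1r2 UMI in TLR9agonist_LW. Monocytes held 64.1 and 131 CPM, while macrophages held 68.2 and 37.6 CPM and type 1 dendritic cells 111 and 39.7 CPM. Type 2 or monocyte-derived dendritic cells held 609 and 628 CPM, with a log2 ratio of 0.05 (-0.08 to 0.17), and migratory dendritic cells held 157 and 212 CPM. Neutrophils held 873 and 578 CPM.

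In T cells Il1r2 was 118 CPM (112 to 123) in WT_LW and 259 CPM (251 to 268) in TLR9agonist_LW, with a log2 ratio of 1.14 (1.06 to 1.23). Regulatory T cells, which restrain other lymphocytes, held 251 and 432 CPM, the γδT17 gate held 41.9 and 116 CPM, and the T cells in none of the finer gates held 94.1 and 291 CPM. CD8 T cells, at 21.4 and 16.6 CPM, showed no such difference, with a log2 ratio of -0.37 whose interval included 0 (-1.40 to 0.57). The phagocyte markers in the T cell gate summed to 356 CPM in WT_LW against 207 CPM in TLR9agonist_LW, and Schwann cells held 7.34 and 6.57 CPM of Il1r2. In thinned cells 7.77% and 18.4% of T cells had an Il1r2 UMI (19.4% and 33.3% unthinned), against 1.47% and 0.741% of Schwann cells. Keratinocytes went the other way, at 17.7 and 8.49 CPM (log2 ratio -1.06, -1.34 to -0.77), as did the small lymphatic endothelial gate (32 and 3 UMIs), where the phagocyte markers summed to 793 and 126 CPM and their part was not tested. Basal keratinocytes, at 49.0 and 17.5 CPM, were above background in both libraries, whereas the suprabasal values of 6.01 and 5.59 CPM were not. The keratinocyte ratio ranged from -2.43 with the Schwann cell level subtracted to -0.54 with equal weight per cell, and was -0.65 with doublets kept.

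**Figure D4:**
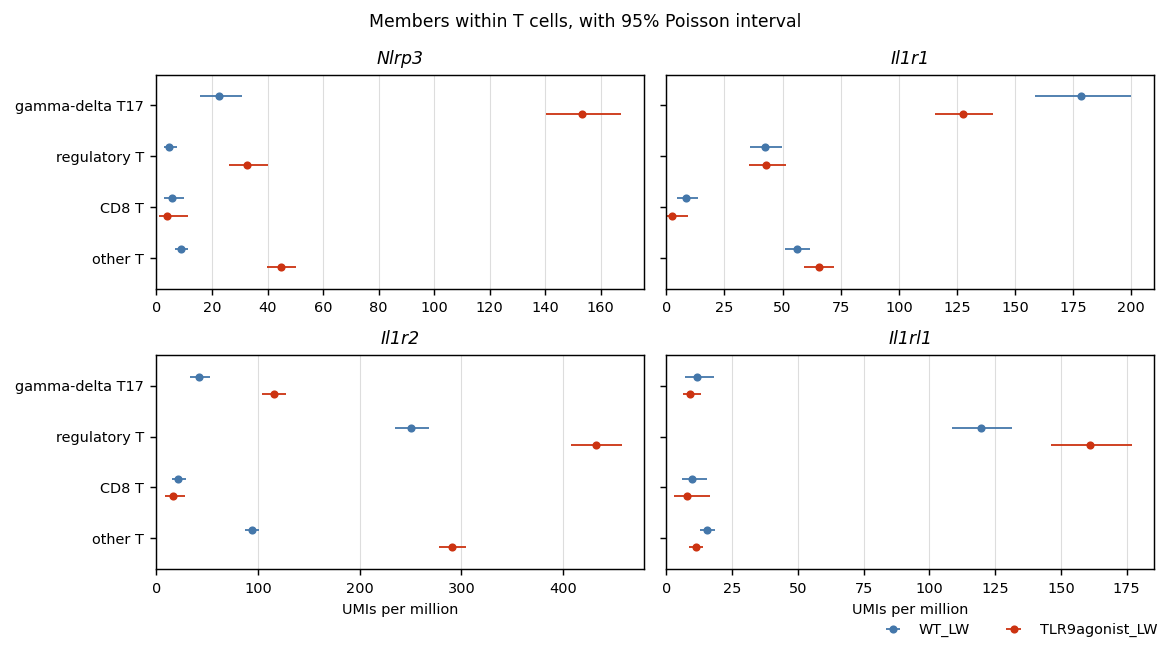
Nlrp3, Il1r1, Il1r2 and Il1rl1 within the T cell gate, in CPM on a linear axis, for WT_LW (blue) and TLR9agonist_LW (red), with exact 95% Poisson intervals. Nlrp3 in the γδT17 gate stands at 22.4 and 153 CPM, Il1r2 is highest in regulatory T cells, and CD8 T cells are low for all of them.

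Il1rl1 (chr1:40429570-40465415, plus strand) encodes ST2, the receptor of IL-33. It is known for a distal start used in mast cells and other blood cells and a proximal start used in fibroblasts, which gives much of the soluble form. Both windows are shown because mast cells and fibroblasts were the main holders of the gene here, and the counts do not separate the starts. They lie on the plus strand of GRCm38.p6, by RefSeq, at chr1:40429320-40429619 and chr1:40439379-40439678. Capitals mark the GATA motif AGATAA, or TTATCT where it lies on the other strand, and the C/EBP motif TTGCNNAA.
Il1rl1 distal start: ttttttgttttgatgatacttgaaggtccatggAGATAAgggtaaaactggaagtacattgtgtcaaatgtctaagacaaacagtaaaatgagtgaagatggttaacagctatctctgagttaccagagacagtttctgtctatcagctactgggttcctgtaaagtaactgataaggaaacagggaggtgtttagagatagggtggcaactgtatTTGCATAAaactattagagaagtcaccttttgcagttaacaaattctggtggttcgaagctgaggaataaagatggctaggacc
Il1rl1 proximal start: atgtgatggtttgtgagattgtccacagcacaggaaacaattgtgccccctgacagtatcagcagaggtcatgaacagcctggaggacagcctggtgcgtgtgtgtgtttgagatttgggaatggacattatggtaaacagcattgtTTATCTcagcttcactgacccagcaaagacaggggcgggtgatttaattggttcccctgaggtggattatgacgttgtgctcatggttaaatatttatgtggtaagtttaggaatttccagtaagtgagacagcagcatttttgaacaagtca
The distal window held one match to each motif and the proximal window held a GATA match alone. Of all promoter windows, 11.2% held the GATA motif and 10.8% the C/EBP motif, and a match says nothing of binding.

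Mast cells held 676 CPM of Il1rl1 (613 to 744) in WT_LW and 833 CPM (775 to 894) in TLR9agonist_LW, with a log2 ratio of 0.30 (0.13 to 0.48), which was -0.02 when each cell had equal weight. Fibroblasts held 249 CPM (242 to 257) and 204 CPM (199 to 209), a log2 ratio of -0.29 that matched the -0.28 of their median gene. Being many, fibroblasts carried 65.8% and 75.0% of all Il1rl1 UMIs, and mast cells 6.98% and 8.78%. The gene was uneven among fibroblasts, since the 10% of cells with the most UMIs carried 81.1% and 84.0% of it. Regulatory T cells held 120 CPM (108 to 131) and 161 CPM (146 to 177), a log2 ratio of 0.43 (0.23 to 0.63). The γδT17 gate (11.5 and 9.13 CPM), CD8 T cells (9.88 and 7.67 CPM) and phagocytes (10.4 and 7.54 CPM) lay near the Schwann cell level of 6.75 and 4.84 CPM. The ratios of the receptor in these holders ran from -0.29 to 0.43, against 2.31 for the ligand Il33 in keratinocytes.

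Nlrp3 (chr11:59541568-59566956, plus strand), the inflammasome sensor, was held by phagocytes at 249 CPM (242 to 256) in WT_LW and 305 CPM (296 to 315) in TLR9agonist_LW, with a log2 ratio of 0.29 (0.23 to 0.36). Neutrophils held 959 and 1659 CPM. Macrophages (260 and 295 CPM) and type 2 or monocyte-derived dendritic cells (206 and 211 CPM) differed little, while monocytes held 243 and 416 CPM. The log2 ratio was 0.77 (0.53 to 1.02) in monocytes and 0.18 (0.09 to 0.27) in macrophages, so that monocytes again had the wider gap of the pair, beside the differences in phagocyte and neutrophil markers given for Il1b.

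T cells, like mast cells, showed a wide gap for Nlrp3. The T cell gate held 8.93 CPM (128 UMIs) in WT_LW and 67.2 CPM (877 UMIs) in TLR9agonist_LW, with a log2 ratio of 2.91 (2.64 to 3.19), and the alternatives ranged from 2.18 to 3.93. The γδT17 gate held 22.4 CPM (15.8 to 30.9) and 153 CPM (140 to 167), regulatory T cells 4.51 and 32.5 CPM, and the remaining T cells 8.88 and 44.8 CPM. CD8 T cells held 10 UMIs (5.49 CPM) and 3 UMIs (3.84 CPM), a log2 ratio of -0.52 with a wide interval (-3.02 to 1.44). Schwann cells held 4.96 and 6.92 CPM, so that regulatory and CD8 T cells of WT_LW were at background. In thinned cells 1.21% and 6.56% of T cells had an Nlrp3 UMI (4.20% and 13.3% unthinned), and in the γδT17 gate 3.52% and 12.4% (6.14% and 23.9%), against 0.653% and 0.988% of Schwann cells. Fibroblasts, at 3.99 and 9.18 CPM of Nlrp3, lay close to that background. The phagocyte markers in the γδT17 gate summed to 357 CPM in WT_LW against 180 CPM in TLR9agonist_LW, and the neutrophil markers to 217 and 204 CPM.

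Other genes of the pathway were counted from lists written from general knowledge, with earlier results of these data known. Of the 4 other IL-1 family ligands with at least 50 UMIs over all cells, Il1f9, which encodes IL-36γ, was at least 2-fold higher (12.3 and 40.0 CPM), and none was lower, where 3.8% and 11.7% of all genes were. This level pools all cells, of which keratinocytes made up 5.95% in WT_LW and 11.3% in TLR9agonist_LW. Within keratinocytes none of the 4 ligands with as many UMIs was 2-fold higher, where 2.55% of all genes were. Il1f9 did pass in fibroblasts, T cells and macrophages, where the part of free RNA was not tested. In keratinocytes 1 of these 4 ligands was at least 2-fold lower, where 20.2% of all genes were, so the count is not read as a result about the ligands. It was Il1f6, which encodes IL-36α, at 23.4 and 8.45 CPM, whereas Il33 and Il1rn were higher in TLR9agonist_LW in the same cells. Of 7 receptor partners and decoys with as many UMIs, none was 2-fold higher and Sigirr, an inhibitory receptor, was lower (9.55 and 3.51 CPM), where 11.7% of all genes were. Il1rap, the chain shared by the receptors of IL-1 and IL-33, was 20.4 and 25.3 CPM in fibroblasts, 14.8 and 18.6 CPM in keratinocytes, and 223 CPM in Schwann cells of both libraries. Il18r1 and Il18rap, the chains of the IL-18 receptor, were held by T cells at 318 and 262 CPM and at 106 and 107 CPM. Il18bp, which neutralises IL-18, was 20.3 and 15.6 CPM in phagocytes.

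Of 15 inflammasome and processing genes over all cells, none was 2-fold higher and 3 were lower (Nlrc4, Nlrp1a and Nlrp1b), where 3.8% and 11.7% of all genes were. These levels pool all cells, of which phagocytes made up 16.7% in WT_LW and 10.5% in TLR9agonist_LW. Within phagocytes none of the 13 genes with at least 50 UMIs was 2-fold higher or lower. None of the 3 named genes was counted as lower in any single gate. Casp1, the protease that cuts IL-1β and IL-18, was 32.2 and 32.6 CPM in phagocytes, and 7.28 and 17.2 CPM in fibroblasts, a log2 ratio of 1.24 (0.95 to 1.55). Pycard, the adaptor that links NLRP3 to caspase-1, was 163 and 114 CPM in phagocytes and 141 and 72.5 CPM in T cells, where Nlrp3 had the opposite direction. Gsdmd, the pore through which IL-1β leaves the cell, was 51.2 and 36.8 CPM in phagocytes. The higher Il1b and Nlrp3 of TLR9agonist_LW stood beside levels of Casp1, Pycard and Gsdmd in phagocytes that were alike or lower. The median gene of phagocytes was lower as well, at a log2 ratio of -0.26, and the 13 genes of this list counted there had a median of -0.19. Of 14 adaptors and kinases over all cells, none was higher and Irak4 was lower, against the same shares. In T cells 1 of 14 was 2-fold higher, against 4.36% of all genes, and 1 was lower (Irak1). The higher one was Irak3, an inhibitor of this signalling, at 9.83 and 22.8 CPM. In pericytes and smooth muscle cells 2 of 14 were higher, against 3.25%, and 1 was lower (Irak4). The higher ones were Irak3, at 25.2 and 69.7 CPM, and Nfkb1.

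Genes that IL-1, TNF and IL-17 all induce formed the list with the highest counts. Over all cells 11 of 16 were at least 2-fold higher, against 3.8% of all genes, and none was lower, with a median log2 ratio of 1.43 against -0.39 for all genes. In the pericyte and smooth muscle gate, where the level of Il1r1 was highest, 10 of 13 were higher, against 3.25% of all genes there, with a median of 2.79. There Cxcl1, a neutrophil attractant, was 2054 and 14216 CPM, Il6 was 313 and 2887 CPM, and Csf3, the granulocyte colony-stimulating factor, was 3 UMIs in WT_LW and 469 in TLR9agonist_LW, with a log2 ratio of 7.49 (5.94 to 9.78). In blood endothelial cells 11 of 12 were higher (3.35% of all genes), with a median of 2.53, and in fibroblasts 11 of 16 (4%), with a median of 1.64. Gates with Il1r1 near background also had such genes, 6 of 16 in keratinocytes (2.55% of all genes), 8 of 15 in phagocytes (3.52%), with a median of 1.02, and 8 of 10 in Schwann cells (2.47%), with a median of 1.31. Among T cells it was 10 of 15 in the whole gate (4.36%) and 9 of 12 in the γδT17 gate (5.34%), where Il1r1 was high. The median was 1.34 in the γδT17 gate. It was 1.55 over 14 genes in T cells of no finer gate, with Il1r1 at 56.3 and 65.6 CPM. In regulatory T cells, with Il1r1 at 42.3 and 43.0 CPM, it was 0.36 over 11 genes. CD8 T cells, low in Il1r1, had 2 of 8 higher (1.93%) and 2 lower (6.27%), with a median of -0.38. Mast cells had 3 of 9 higher (12.6%) and 1 lower (Tnfaip3), with a median of 0.37. The medians were -0.51 over 5 genes in the small NK cell gate and 0.45 over 6 genes in type 1 dendritic cells. Each of these 2 gates had 1 gene higher and 1 lower. Since TNF and IL-17 induce the same genes, these counts do not separate the IL-1 receptor from theirs. In Schwann cells Cxcl2 was 359.8 and 1834 CPM. The keratinocyte markers were also higher in TLR9agonist_LW outside keratinocytes, at 570.0 and 2522 CPM in T cells, and the part of free RNA in the counts of this list was not tested in any gate.

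The genes whose levels followed each member most closely were sought over 22 points, the gates of both libraries, among 13244 genes with at least 200 UMIs. The measure was Pearson's r of log2(CPM + 1), a description over points that share libraries and free RNA. Klra2 (r = 0.971), Wfdc17 (0.954) and Ptafr (0.952) came closest to Il1b. Ccrl2 (0.927), Ccr1 (0.914) and Fth1 (0.913) came closest to Nlrp3, and Cd80 (0.934), Ccr1 (0.897) and Slc15a3 (0.892) to Il1r2, so that Ccr1 followed both. Il33 was followed by Sprr1a (0.913), Serpinb2 (0.908) and Crct1 (0.898), and Il18 by Rnh1 (0.909), Cstb (0.836) and Acp5 (0.814). Alas1 (0.931) and Hnmt (0.926) were among the closest to Il1rn, and Olr1, Atp6v1e1 and Cd33 (0.875 to 0.888) came closest to Il1a. The likeness was weakest for Il1r1, whose closest genes were Rbpms2 (0.826) and Alkbh5 (0.822), and for Il1rl1 they were 1700019D03Rik, Tmem132e and Lsamp (0.860 to 0.873).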

How the data were processed

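Single-cell RNA of skin wounds was measured in 2 libraries, 1 per group. For each cell the authors deposited UMI counts of every gene, which were raw output of Cell Ranger 4.0.0 per the file headers, for 12800 and 13751 cells with 99374045 and 132339022 UMIs. The submitters' processing notes also name fastp, Seurat and mm9. Because 27722 of 27998 gene identifiers matched GENCODE M21, positions are given on GRCm38, with promoter windows from RefSeq on GRCm38.p6.

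Kept cells had 500 UMIs or more, 300 genes or more and no more than 15% mitochondrial UMIs (11443 and 13206). The automatic doublet threshold marked 0 cells, so the cells with the highest doublet scores were removed at 0.8% per 1000 cells (1048 and 1395). A marker was positive in a cell when its UMIs exceeded the free RNA expected there at a Poisson p of 0.01, and a cell entered a gate with at least 3 positive markers and at most 0.5 of that share for every other class (lymphatic and blood endothelial cells were not set against each other). Finer gates needed at least 3 markers and the top share. The gates left 2687 and 2716 cells ungated.

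UMIs were summed per gate as CPM with exact Poisson 95% intervals. Ratios carry the exact binomial interval and shares of cells the Clopper-Pearson interval. Shares were compared in cells thinned to 1500 UMIs, which left out 55 and 73 keratinocytes, 6 and 3 T cells and 25 and 30 phagocytes. Genes with at least 50 UMIs summed over both libraries were counted, so a gene could enter through the library where it was high. A 2-fold line was applied to them. The rule names members in every gated cell type that holds them, though the text leaves out some small gates, and a gene of the pathway lists could be named when it passed that line or is a partner of a member. The ratios and intervals were tested on simulated Poisson counts. Such counts lack the clustering of UMIs by cell, so spread beyond counting error was not tested. The members, lists and gates were chosen with earlier results of these data known. Of the 3 genes most like each member, 2 are not reported here. Computations used scipy 1.17.1 and numpy 2.4.6 under Python 3.11.15, with scanpy 1.11.5, leidenalg 0.10.2, pandas 2.3.3 and matplotlib 3.10.9.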

Additional observations from a re-analysis of the deposited data

Results flagged for a closer look

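Il1b in mast cells and in lymphatic endothelial cells went opposite ways between the libraries, with log2 ratios of 2.23 and -1.18, a difference between cell types that was not tested. The lymphatic gate held 84 Il1b UMIs in 68 cells of WT_LW and 50 in 55 cells of TLR9agonist_LW, and its summed phagocyte markers were 793 and 126 CPM. Il1r2 also went opposite ways in T cells (1.14) and keratinocytes (-1.06), which was not tested either.

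The cells that entered no gate, 2687 in WT_LW and 2716 in TLR9agonist_LW, were used in no comparison of cell types. In them Il1b had a log2 ratio of 1.07 (376 and 789 CPM), close to that of the phagocytes, and Il33 one of 2.74 (11.4 and 75.9 CPM). Both levels were above those of Schwann cells.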

How the results depend on the processing

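Each of 21 ratios was recomputed under 8 alternatives, of which the subtraction of the Schwann cell level was chosen after seeing the data. Of 168 values, 163 kept their direction, and 17 of the 21 ratios kept it throughout. A ratio in the highest gate was taken for each of the 9 members, with neutrophils left out. A stricter cell filter, doublets kept and free RNA subtracted moved none of these 9 ratios by more than their counting intervals. A stricter gate gave 0.89 for Il1b in phagocytes, 0.57 for Il1r1 in pericytes and smooth muscle cells, -0.069 for Il1r2 in phagocytes and -0.11 for Il1r1 in T cells, the last 2 reversed. Leiden clusters gave 1.15 for Il1b and 0.22 for Nlrp3 in phagocytes and -0.42 for Il18 in keratinocytes. Equal weight per cell gave 0.93 for Il1b, 0.76 for Il1rn, 0.058 for Il1r2 and 0.20 for Nlrp3 in phagocytes, 0.59 for Il1r1, 2.18 for Il33, and the reversed values 0.053 for Il18 in keratinocytes and -0.020 for Il1rl1 in mast cells. Relative to the median gene the values were 1.38 for Il1b, 1.10 for Il1rn, 0.44 for Il1r2, 0.56 for Nlrp3, 1.07 for Il1r1, 2.76 for Il33, 0.12 for Il1rl1 and 0.22 for Il18, the last reversed. Thinned to 1500 UMIs they were 0.94 for Il1b, 0.67 for Il1rn, 0.25 for Il1r2, 0.19 for Nlrp3, 0.49 for Il1r1, 0.11 for Il1rl1 and -0.014 for Il18. The cause of these reversals was not tested. Depth limits Il1a in mast cells of WT_LW, which rests on 3 UMIs, and the small gates of monocytes and Langerhans cells. No paired analysis was possible because each group has 1 library.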
